A study of Mus musculus with 8 samples.

Results

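The 10 genes described here encode the alpha subunits of heterotrimeric G proteins of the Gi/o class (Gnao1, Gnai1, Gnai2, Gnai3 and Gnaz), the Gs class (Gnas), the Gq class (Gnaq and Gna11) and the G12/13 class (Gna12 and Gna13). They were listed by class and matched by Ensembl gene identifier. All 10 had a row among the 55417 genes of the count files, and all 10 were among the 11781 genes with enough counts for the test between brain regions. The libraries came from astrocytes sorted by flow cytometry from WT (wild-type) mice at postnatal day 29. Cortical and subcortical astrocytes were each sequenced from 4 mice, giving 8 libraries. Mice 1 and 4 were male and mice 2 and 3 were female, and each mouse number stands once in each region. No allele, transgene or agent is named for any group, and the sources used here give neither the sorting gate nor the mouse strain. RNA was read from the 3′ end (QuantSeq), so a gene's count comes mainly from the last part of its transcripts. Levels are given as CPM, counts scaled to one common library size.

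G protein alpha subunits bind the inner face of receptors that span the membrane repeatedly and exchange GDP for GTP when a ligand binds. Gs stimulates adenylyl cyclase and raises cyclic AMP, Gi/o inhibits several cyclases and releases beta-gamma dimers, Gq activates phospholipase C-beta and releases stored calcium, and G12/13 activates RhoA through guanine nucleotide exchange factors. In astrocytes, beta-adrenergic receptors couple to Gs, alpha-2 adrenergic, adenosine A1 and GABA-B receptors couple to Gi/o, and P2Y1 and alpha-1 adrenergic receptors couple to Gq.

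The carboxyl-terminal end of an alpha subunit contacts the receptor and helps to set which receptors it couples to, and the sequences below show how the classes differ there. Each is the last 36 bases of the coding sequence with its stop codon, 5′ to 3′ on the coding strand, from the GENCODE M21 transcripts of GRCm38. Capitals mark the fourth codon counted back from the stop, where Gi and Go subunits carry the cysteine that pertussis toxin modifies. For Gnai2, Gnas and Gna13, which have several annotated coding ends, the end of the transcript with the longest coding sequence is shown.
Gnao1: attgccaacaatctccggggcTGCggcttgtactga
Gnao1, other annotated end: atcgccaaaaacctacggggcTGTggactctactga
Gnai1: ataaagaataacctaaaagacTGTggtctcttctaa
Gnai2: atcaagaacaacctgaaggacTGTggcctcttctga
Gnai3: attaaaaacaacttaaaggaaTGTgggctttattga
Gnaz: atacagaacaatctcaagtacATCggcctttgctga
Gnas: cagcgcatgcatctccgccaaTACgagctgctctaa
Gnaq: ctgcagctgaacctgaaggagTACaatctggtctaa
Gna11: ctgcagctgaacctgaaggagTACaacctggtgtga
Gna12: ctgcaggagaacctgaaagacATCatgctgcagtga
Gna13: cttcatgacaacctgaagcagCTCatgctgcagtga
Gnao1, Gnai1, Gnai2 and Gnai3 carry a cysteine codon at the marked place, and the other 6 genes do not. Gnaq and Gna11 are identical at 33 of the 36 bases, Gnai1 and Gnai2 at 30, and Gna12 and Gna13 at 29. The 2 ends of Gnao1 belong to alternative last exons and share 28 of the 36 bases. Counts per gene do not tell these splice forms apart.

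The 4 cortical libraries held 3537852 to 4060891 gene counts each and the 4 subcortical libraries 2484717 to 3829804. A level resting on 3 counts is 0.70 to 0.78 CPM in the cortical and 0.84 to 1.44 CPM in the subcortical libraries, below every member's level in every library. All 15 listed astrocyte markers were detected, at a summed 39105 to 41818 CPM in cortical and 33624 to 36016 CPM in subcortical libraries. Markers of other cell types were present at lower summed levels. The 10 oligodendrocyte markers summed to 882 to 1419 CPM in cortical and 2314 to 5846 CPM in subcortical libraries. The 15 neuron markers summed to 386 to 780 CPM in cortical and 173 to 221 CPM in subcortical libraries. The 8 oligodendrocyte precursor markers summed to 237 to 317 CPM in cortical and 396 to 693 CPM in subcortical libraries, with 2 of 5 tested called lower (Olig1 and Olig2) and Gpr17 at 0 counts. The ranges of these 3 sums did not overlap between regions, and neither did those of the astrocyte sum, which was higher in cortical libraries. The astrocyte markers themselves were split, with 4 of 15 tested called higher and 4 lower in cortical libraries. Their median log2 fold change was 0.045. The sums of the remaining cell types overlapped. Cortical and subcortical sums were 179 to 395 and 130 to 225 CPM for microglia markers (3 of 10 tested called higher) and 565 to 1124 and 499 to 1380 CPM for mural cell and fibroblast markers (1 of 8 called lower, Lum at 0). They were 67.9 to 135 and 107 to 144 CPM for ependymal markers (1 of 5 called lower) and 17.4 to 29.5 and 8.17 to 43.0 CPM for endothelial markers (0 of 2 called by edgeR, Tek and Cdh5 at 0). In such bulk libraries, fewer cells of a type and less RNA per cell cannot be told apart.

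Gnao1, the alpha subunit of Go and one of the most abundant G proteins of the brain, was about 8-fold higher in cortical than in subcortical astrocytes, and it was the 1 member of the 10 that passed the test between regions. In cortical astrocytes of mice 1, 2, 3 and 4 Gnao1 stood at 1338, 1262, 1374 and 1391 CPM. In subcortical astrocytes of the same mice it stood at 163, 197, 157 and 155 CPM. Every cortical library lay far above every subcortical one, and the libraries of each region lay close together. The means were 1341 ± 57.2 CPM and 168.0 ± 19.7 CPM (SD, n = 4), with at least 4840 counts in each cortical library and at most 557 in each subcortical one. The log2 fold change was 3.00 with a standard error of 0.16, a fold of 7.99 with a 95% interval of 6.35 to 10.1 (edgeR quasi-likelihood test, Benjamini-Hochberg adjusted p = 4.9e-11). Within mice 1 to 4 the ratio of cortical to subcortical level was 8.21, 6.40, 8.78 and 8.96. Among all genes tested Gnao1 ranked 55 by mean CPM in cortical astrocytes and 708 in subcortical astrocytes, and its p-value ranked 3.

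The Gnao1 locus also holds 4930488L21Rik, which GENCODE M21 annotates as an antisense gene on the opposite strand. It had 163, 95, 145 and 63 counts in the cortical libraries of mice 1 to 4 and 6, 10, 6 and 0 counts in the subcortical libraries. It too was higher in cortical astrocytes, at 28.6 ± 11.0 CPM against 2.35 ± 1.97 CPM (log2 fold change 3.69, SE 0.60, edgeR adjusted p = 0.00026). Its counts came to 1.09% to 3.02% of the Gnao1 count in cortical libraries and 0% to 2.44% in subcortical libraries. The sources used here do not say whether counting used strand. If it did not, the count of 4930488L21Rik could include reads of Gnao1 transcripts. The overlap of the 2 genes was found from their whole spans, and overlap of their exons was not examined.

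The 4 other Gi/o members did not pass the test. Gnai2, the most abundant of the 3 Gi genes, stood at 556, 666, 586 and 531 CPM in cortical astrocytes of mice 1 to 4 and at 580, 432.0, 585 and 577 CPM in subcortical astrocytes. The regions overlapped, and the low subcortical library of mouse 2 stood apart from the other 3. The log2 fold change of Gnai2 was 0.11 with a 95% interval of -0.22 to 0.43 (edgeR adjusted p = 0.817). By level, Gnai2 came first of the 5 Gi/o genes in subcortical astrocytes and behind Gnao1 in cortical astrocytes.

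Gnaz encodes Gz, an inhibitory subunit that pertussis toxin does not modify, and its marked codon is ATC. It had 24.3, 40.4, 34.3 and 26.0 CPM in cortical and 25.0, 22.1, 24.1 and 25.1 CPM in subcortical astrocytes of mice 1 to 4. The cortical libraries of both female mice were the 2 highest, and the other values lay together. The log2 fold change was 0.38 (SE 0.27, 95% interval -0.20 to 0.95, edgeR adjusted p = 0.554).

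Gnai3, a widely expressed inhibitory subunit, had 15.1, 12.3, 5.37 and 18.8 CPM in cortical and 32.9, 12.98, 19.6 and 25.1 CPM in subcortical astrocytes. The cortical level was the lower one in 4 of 4 mice, although the ranges of the regions overlapped. The log2 fold change was -0.81 (SE 0.40, 95% interval -1.65 to 0.02), with an unadjusted p of 0.0542 and an edgeR adjusted p of 0.301. In the edgeR fit with the mouse as a block the unadjusted p was 0.0371 and the adjusted p 0.235. Gnai1, which is known as an abundant inhibitory subunit of the brain as a whole, was the lowest of the 10 genes. It had 5.95, 3.39, 6.77 and 13.01 CPM in cortical and 13.3, 5.29, 4.54 and 8.08 CPM in subcortical astrocytes, with 11 to 54 counts per library. The interval of its log2 fold change, -1.34 to 1.15, is the widest of the 10 genes (edgeR adjusted p = 0.966).

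**Figure D1:**
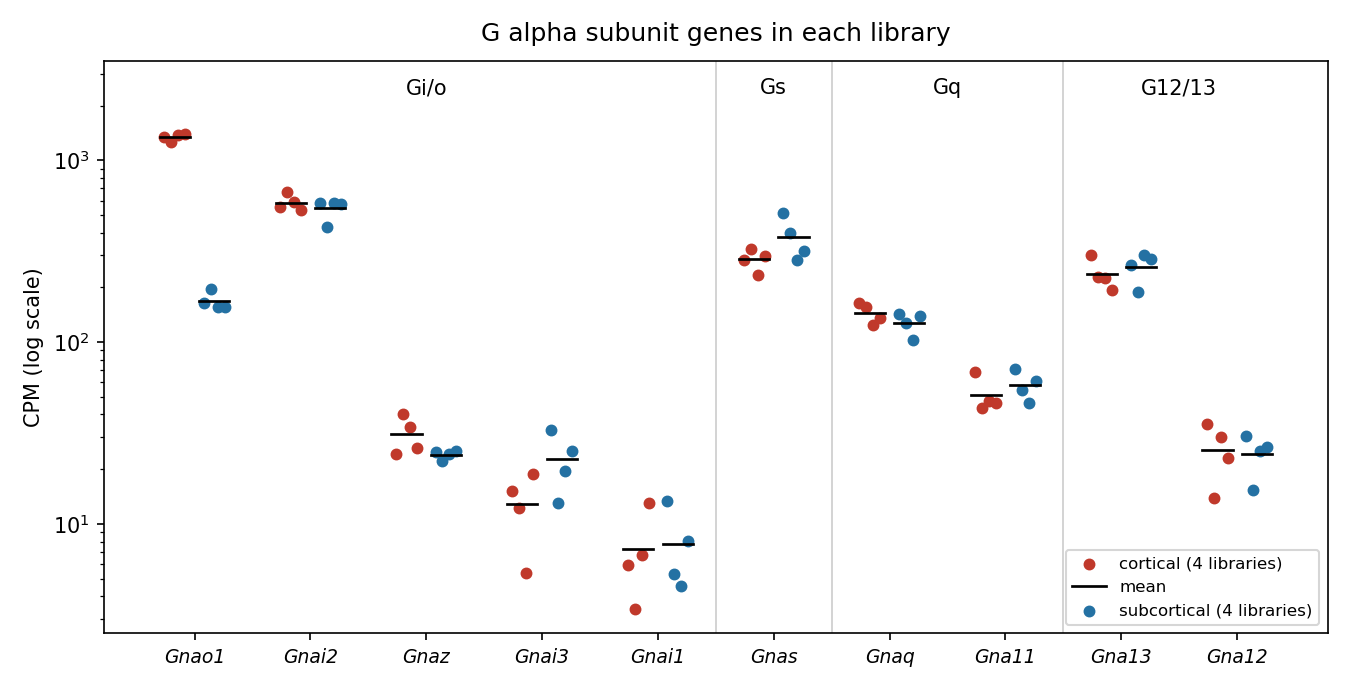
Level of each G alpha gene in each library (CPM, log axis), with cortical and subcortical libraries as separate points (n = 4 each) and a line at each mean. Gnao1 separates the regions, at 1262 to 1391 CPM against 155 to 197 CPM, and the points of the other 9 genes overlap between regions.

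Gnas, which encodes the stimulatory subunit that links beta-adrenergic receptors to adenylyl cyclase, had 284, 325, 234 and 296 CPM in cortical astrocytes of mice 1 to 4. In subcortical astrocytes it had 509.7, 396, 284 and 317 CPM. The cortical level was the lower one in 4 of 4 mice, the regions overlapped, and the subcortical library of mouse 1 was the highest of the 8. The means were 285 ± 37.9 and 377 ± 100.3 CPM (SD, n = 4), and the log2 fold change was -0.40 (SE 0.19, 95% interval -0.79 to -0.02). The unadjusted p was 0.0416 and the adjusted p 0.261 (edgeR), so Gnas was not called. Without the subcortical library of mouse 1 the log2 fold change was -0.22 (edgeR adjusted p = 0.645). Gnas is an imprinted locus with several first exons, and its count sums whatever transcripts share the annotated gene.

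Neither gene of the Gq pair passed the test. Gnaq, the widely expressed founder of the class, had 164, 156, 125 and 135 CPM in cortical and 142, 127, 103 and 140 CPM in subcortical astrocytes of mice 1 to 4. The cortical level was the higher one in 3 of 4 mice, within overlapping ranges, and the log2 fold change was 0.18 (95% interval -0.19 to 0.55, edgeR adjusted p = 0.687). Gna11, its close relative with 33 of 36 identical bases at the coding end, had 68.2, 43.3, 47.2 and 46.0 CPM in cortical and 71.2, 54.8, 46.5 and 60.7 CPM in subcortical astrocytes. Mouse 1 gave the highest Gna11 level in both regions. The log2 fold change of Gna11 was -0.19 (95% interval -0.66 to 0.29, edgeR adjusted p = 0.764).

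In the G12/13 class, Gna13 was by far the more abundant member. It had 299.7, 228, 226 and 194 CPM in cortical and 265, 187, 300.9 and 286 CPM in subcortical astrocytes of mice 1 to 4. High and low libraries occurred in both regions, and the log2 fold change was -0.13 (95% interval -0.52 to 0.25, edgeR adjusted p = 0.797). Gna12, which signals to the same RhoA exchange factors, had 35.5, 13.8, 30.1 and 23.1 CPM in cortical and 30.4, 15.4, 25.2 and 26.5 CPM in subcortical astrocytes. The library of mouse 2 was the lowest in each region. The log2 fold change of Gna12 was 0.07 (95% interval -0.61 to 0.75, edgeR adjusted p = 0.951).

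Of the 10 members, 1 was higher in cortical astrocytes at an adjusted p under 0.05, 0 were lower and 9 were not called. Over all 11781 genes tested, 3.42% were called higher in cortical and 3.39% lower, 6.81% in either direction. The CPM ranges of the regions did not overlap for 1 member, Gnao1, against 12.2% of all genes tested. The median log2 fold change was -0.01 both over the 10 members and over all genes tested. Leaving Gnao1 aside, the median size of the log2 fold change was 0.18 over the other 9 members and 0.35 over all genes tested. The genes tested were not matched to the members by level, so these 2 medians are not a like comparison. At an unadjusted p under 0.05 there were 2 members, Gnao1 and Gnas, in this edgeR fit, which does not pair libraries by mouse. With the mouse as a block there were 3, with Gnai3 added.

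**Figure D2:**
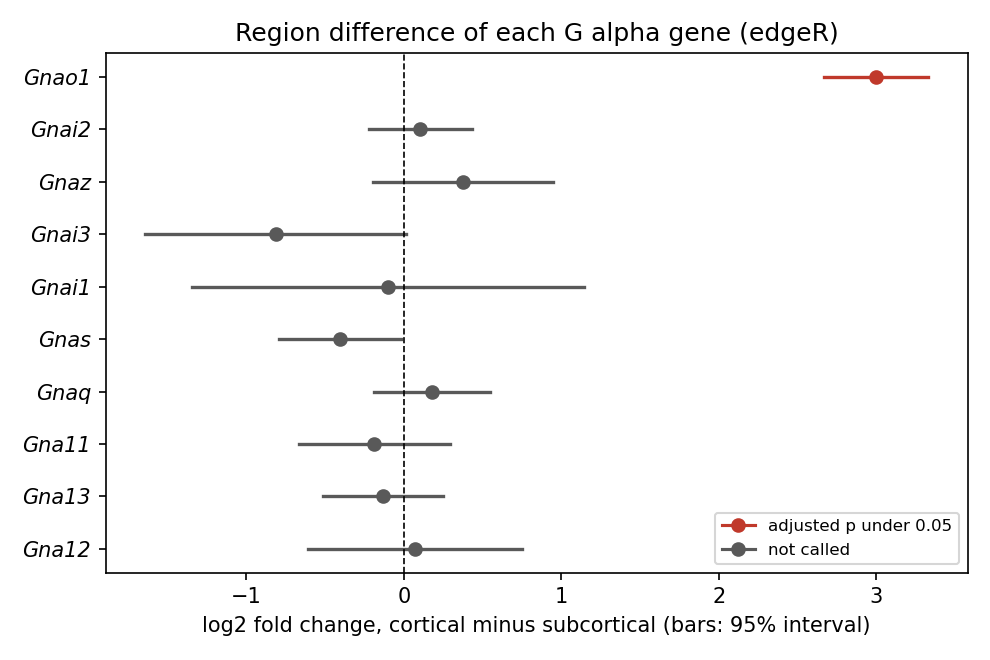
Log2 fold change, cortical minus subcortical, of each G alpha gene from edgeR, with 95% intervals (4 libraries per region). Gnao1 stands at 3.00, and the other 9 genes lie between -0.81 and 0.38 and were not called.

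The order of the members differed between regions at its upper end. With 3′ counting a transcript's length does not scale its count, so CPM was set side by side between genes without division by length. How well each gene's 3′ end is captured was not measured. In cortical astrocytes the order was Gnao1, Gnai2, Gnas, Gna13, Gnaq, Gna11, Gnaz, Gna12, Gnai3 and Gnai1. There the ranges of Gnas and Gna13 overlapped, as did those of each neighbouring pair from Gnaz to Gnai1, and the other neighbours did not overlap. In subcortical astrocytes Gnai2 led, followed by Gnas, Gna13 and Gnao1, each overlapping with the next. Below them Gnaq and Gna11 were each separate from their neighbours, and Gna12, Gnaz, Gnai3 and Gnai1 again overlapped with the next.

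The 10 genes together summed to 2721 ± 60.1 CPM in cortical and 1613 ± 162 CPM in subcortical astrocytes (SD, n = 4). Without Gnao1 the sums were 1379 ± 106 and 1445 ± 173 CPM, with overlapping ranges. As a share of the counts of the 10 genes, the Gi/o class made up 69.5%, 72.2%, 75.2% and 74.0% in cortical astrocytes of mice 1 to 4 and 44.4%, 46.1%, 51.0% and 48.8% in subcortical astrocytes. The share was higher in the cortical library of every mouse, by 24.2 to 26.0 percentage points. Its means were 72.7 ± 2.49% and 47.6 ± 2.88%.

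The shares of the 3 other classes were correspondingly smaller in cortical astrocytes, since shares of one sum must offset each other. Gs made up 10.5 ± 1.31% in cortical and 23.3 ± 5.004% in subcortical astrocytes. Gq made up 7.20 ± 0.82% and 11.6 ± 1.32%, and G12/13 made up 9.63 ± 1.70% and 17.6 ± 3.16%. The ranges of the regions did not overlap for any of the 4 classes. In CPM, only the Gi/o class was without overlap, at 1977 ± 27.4 against 766 ± 65.2 CPM. The class sums were 196 ± 26.6 and 186 ± 27.6 CPM for Gq and 262 ± 51.1 and 284 ± 55.6 CPM for G12/13.

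Gnao1 alone carried 49.3 ± 2.92% of the counts of the 10 genes in cortical and 10.5 ± 2.08% in subcortical astrocytes. Within the Gi/o class Gnao1 held 67.8 ± 2.91% and Gnai2 29.6 ± 2.85% in cortical astrocytes. In subcortical astrocytes Gnao1 held 22.2 ± 4.80% and Gnai2 70.7 ± 4.27%, so the leading Gi/o transcript changed from one region to the other. With Gnao1 left out of the sum, the Gi/o share was 46.2 ± 3.44% in cortical and 41.4 ± 3.64% in subcortical astrocytes. The other shares were then 20.6 ± 2.25% and 26.1 ± 5.84% for Gs, 14.2 ± 1.24% and 12.9 ± 1.62% for Gq, and 19.0 ± 3.11% and 19.6 ± 3.31% for G12/13. All 4 classes then overlapped between regions.

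**Figure D3:**
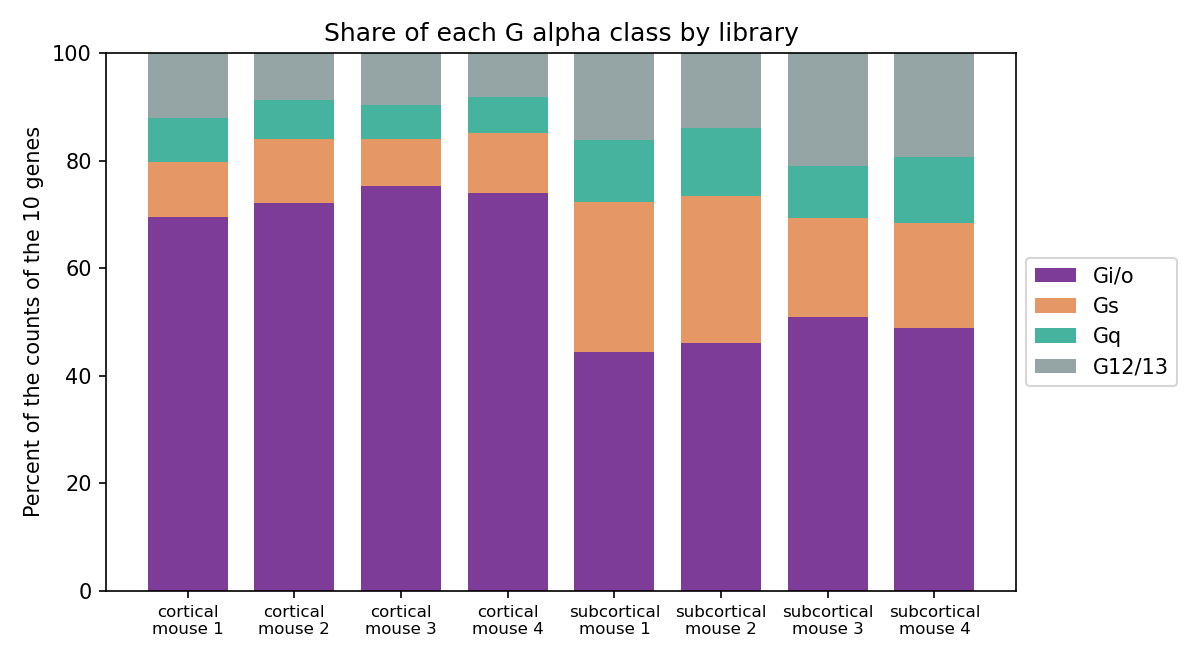
Share of the Gi/o, Gs, Gq and G12/13 classes in the counts of the 10 genes, as stacked bars in percent for each of the 8 libraries. The Gi/o share is 69.5% to 75.2% in the 4 cortical libraries and 44.4% to 51.0% in the 4 subcortical libraries.

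Gnao1 is also abundant in neurons, so its levels were set beside those of neuron markers in the same libraries. The 15 neuron markers summed to 404, 386, 442 and 780 CPM in the cortical libraries of mice 1 to 4 and to 221, 173, 178 and 198 CPM in the subcortical libraries. All 15 were detected, and of the 13 tested 3 were higher in cortical astrocytes and 1 was lower. Nrgn, a calmodulin-binding protein of forebrain neurons, stood at 195.8 ± 77.4 CPM against 8.73 ± 2.56 CPM. Camk2a stood at 86.4 ± 70.7 against 5.97 ± 2.37 CPM. Nrgn and Camk2a had the highest cortical means of the 15 markers, so the regional difference of the sum rests largely on them. Slc17a7 was also called higher, at 15.8 ± 11.4 against 1.15 ± 0.90 CPM (log2 fold change 3.77, edgeR adjusted p = 0.0020). The median log2 fold change of the 13 tested was 0.86. The 1 lower marker was Nefl, at 12.1 ± 3.68 against 39.9 ± 16.2 CPM (edgeR adjusted p = 0.0024). Snap25, a synaptic vesicle fusion protein found across neurons, stood at 12.9 ± 3.38 and 10.01 ± 1.73 CPM (edgeR adjusted p = 0.750). The cortical library of mouse 4 had the highest neuron sum and also the highest Gnao1 level, 1391 CPM against 1262 to 1374 CPM in the other 3. Gnao1 lay above the summed neuron markers in 4 of 4 cortical libraries and below them in 3 of 4 subcortical libraries. The size of that sum depends on which markers were listed, so this order does not measure the amount of neuronal RNA. Without the cortical library of mouse 4 the Gnao1 log2 fold change was 2.98 (edgeR adjusted p = 9.4e-11). The neuron sums of the other 3 cortical libraries, 386 to 442 CPM, still lay above the subcortical sums of 173 to 221 CPM. That fit therefore cannot separate a neuronal part of the Gnao1 difference. The part of neuronal RNA in the Gnao1 difference was not tested.

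**Figure D4:**
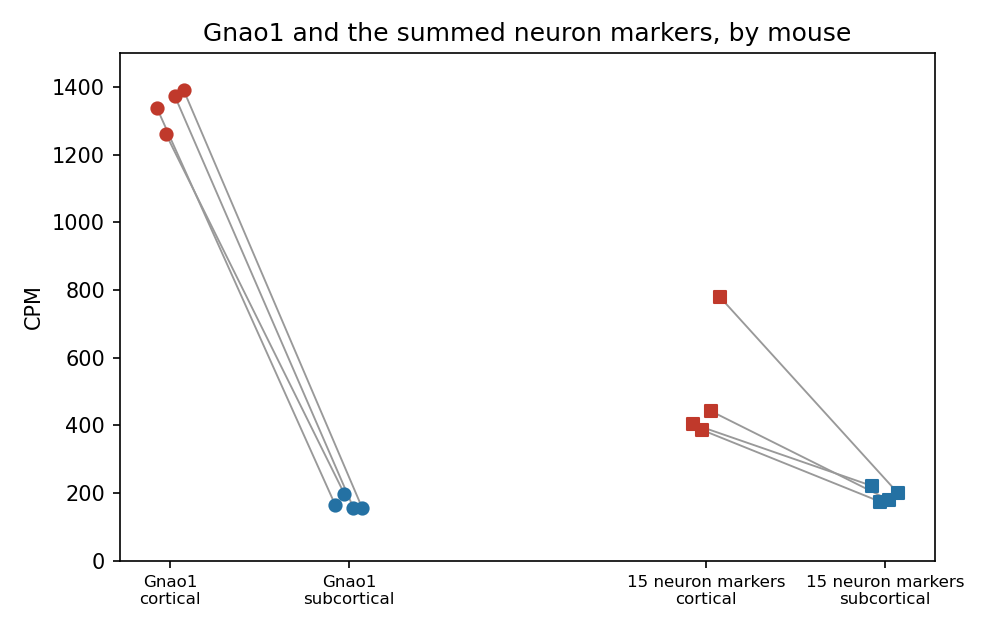
Gnao1 and the sum of 15 neuron markers (CPM) in cortical and subcortical libraries, with lines joining the 2 libraries of each mouse. Gnao1 lies at 1262 to 1391 CPM in cortical and 155 to 197 CPM in subcortical libraries. The marker sums lie at 386 to 780 and 173 to 221 CPM.

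The study's title concerns beta-adrenergic signalling in female mice, and sex was compared with the counts of each mouse's 2 libraries summed. Of the 10 members 0 were called (edgeR, 2 mice per sex), against 0.0373% of the 13402 genes tested. The difference of female minus male on the log2 scale was -0.15 for Gnas (SE 0.20), 0.05 for Gnao1 (SE 0.16), 0.07 for Gnai2 and -0.16 for Gnaq. The 1 member with an unadjusted p under 0.05 was Gnai3, at -0.88 (SE 0.36, unadjusted p = 0.0289, edgeR adjusted p = 0.999), and DESeq2 gave 0 such members. The region difference of Gnao1 was 2.91 in females and 3.10 in males, and the difference between these was -0.19 (SE 0.31, edgeR unadjusted p = 0.545). For Gnaz the region difference was 0.70 in females and 0.01 in males, a difference of 0.69 (SE 0.56, edgeR unadjusted p = 0.230). No member had a region difference that depended on sex at an adjusted p under 0.05, nor did any of the 13334 genes tested with edgeR (0.00%), and 0 members did so at an unadjusted p under 0.05. With the mouse as a block, 0 members and 1 of the 13334 genes did. With 2 mice per sex, differences of the size of these standard errors could not be resolved.

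Alpha subunits work with other proteins, and 132 names of pathway genes were listed by role, of which 131 matched a gene and Gpr56, an older name of the listed Adgrg1, did not. Of the 76 with enough counts, 8 were higher and 13 lower in cortical astrocytes (27.6%, against 6.81% of all genes tested). These lists were drawn up with earlier results on these libraries known. The calls of 9 of these 21 genes held in all 8 fits that each left out 1 library, and those of 12 did not. With all 8 libraries and the mouse as a block, all 21 were called (edgeR adjusted p up to 0.031). DESeq2 also called all 21 (adjusted p up to 0.030). With limma-voom 1 gene of the RGS proteins described below was called higher, against 2 in the main fit.

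Beta and gamma subunits form the dimer that binds the alpha subunit at rest. Of 4 beta genes tested, Gnb1 was the 1 called, with means of 176.6 ± 19.0 CPM (cortical) and 107.0 ± 18.7 CPM (subcortical) (log2 fold change 0.73, SE 0.18, edgeR adjusted p = 0.014). It was no longer called without the cortical library of mouse 3 or the subcortical library of mouse 4 (adjusted p up to 0.063). Gnb2 stood at 183.4 ± 36.9 and 143.3 ± 36.4 CPM (adjusted p = 0.398). Of 6 gamma genes tested, Gng12 was higher, at 140.8 ± 13.2 against 92.0 ± 11.1 CPM (log2 fold change 0.62, adjusted p = 0.035). That call held without the cortical library of mouse 4 or the subcortical library of mouse 3 and was lost without any one of the other 6 libraries (adjusted p up to 0.118). Gng11 was lower in cortical astrocytes, at 31.6 ± 8.43 against 65.4 ± 14.4 CPM (log2 fold change -1.05, adjusted p = 0.012), and was lost without the cortical library of mouse 3 (adjusted p = 0.057). The median log2 fold change was 0.53 over the beta and 0.52 over the gamma genes tested. Of the 6 other alpha genes, Gnat1 and Gnat3 were at 0 counts. Gnal, the olfactory stimulatory subunit, was the 1 tested, at 3.45 ± 2.55 and 4.92 ± 4.22 CPM (adjusted p = 0.869).

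Libraries are numbered here by mouse. RGS proteins speed the return of alpha subunits to the GDP-bound form. Of 11 tested, Rgs20 and Rgs12 were higher and Rgs6 was lower in cortical astrocytes, with a median log2 fold change of 0.14. Rgs20, which acts on Gz and other Gi/o subunits, stood at 127.7 ± 15.7 against 48.1 ± 11.7 CPM (log2 fold change 1.40, SE 0.21, edgeR adjusted p = 9.4e-05), and its call held in all 8 left-out fits. Rgs12 stood at 84.5 ± 21.5 against 48.1 ± 13.4 CPM (log2 fold change 0.81, adjusted p = 0.045), a call lost without any one of cortical libraries 1 and 3 and subcortical libraries 1, 2 and 3 (adjusted p up to 0.213). Rgs6 stood at 48.1 ± 26.0 against 103.9 ± 37.6 CPM (log2 fold change -1.11, adjusted p = 0.023), a call lost without any one of cortical libraries 1, 2 and 3 and subcortical library 2 (adjusted p up to 0.129). Of 7 chaperones and other regulators tested, the 1 called was Gpsm1, a protein that holds Gi/o subunits in their GDP-bound form. It was lower in cortical astrocytes, at 19.9 ± 10.1 against 47.9 ± 12.1 CPM (log2 fold change -1.26, adjusted p = 0.022), a call lost without any one of cortical libraries 2 and 4 and subcortical libraries 1 and 2 (adjusted p up to 0.082). Ccdc88a, the most abundant regulator tested, stood at 921 ± 108 and 915 ± 133 CPM (adjusted p = 0.989), and Rgs7bp, which anchors RGS complexes at the membrane, at 225 ± 36.3 and 288 ± 52.1 CPM (adjusted p = 0.311).

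Among effectors, 1 of 7 adenylyl cyclases, 1 of 6 Gq effectors and 0 of 4 RhoA exchange factors were called, and both calls were lower in cortical astrocytes. DESeq2 called 1 Gq effector higher and 2 lower. Adcy8, a cyclase stimulated by calcium and calmodulin, stood at 7.76 ± 3.14 against 24.2 ± 9.89 CPM (log2 fold change -1.64, edgeR adjusted p = 0.017), a call lost without any one of cortical libraries 2 and 3 and subcortical libraries 3 and 4 (adjusted p up to 0.077). Adcy2, the most abundant cyclase tested, stood at 66.2 ± 15.1 and 52.0 ± 24.2 CPM, and Adcy9 at 20.9 ± 4.82 and 17.04 ± 7.13 CPM. Plcb4, a phospholipase C-beta that Gq activates, stood at 17.9 ± 2.79 against 43.9 ± 4.63 CPM (log2 fold change -1.29, adjusted p = 0.0025), and its call held in all 8 fits. Plcb1 stood at 110.1 ± 28.3 and 180.1 ± 56.3 CPM (adjusted p = 0.061). Arhgef12, which binds active Gna12 and Gna13 products, stood at 165 ± 28.1 and 192 ± 32.4 CPM (adjusted p = 0.619), and Akap13 at 33.9 ± 4.58 and 43.8 ± 12.8 CPM.

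Receptors coupled mainly to Gi/o moved in both directions, with 2 of 10 tested higher and 4 lower in cortical astrocytes and a median log2 fold change of -0.03. Adra2a, the alpha-2A adrenergic receptor, stood at 115.2 ± 26.7 against 361 ± 41.5 CPM (log2 fold change -1.65, edgeR adjusted p = 2.0e-06). Adora1, the adenosine A1 receptor, stood at 206 ± 35.3 against 459 ± 80.9 CPM (log2 fold change -1.16, adjusted p = 0.00015). Both calls held in all 8 left-out fits, as did those of Cxcr4, a chemokine receptor, and Cnr1, the CB1 cannabinoid receptor. Cxcr4 was lower in cortical astrocytes, at 8.01 ± 2.69 against 43.1 ± 26.4 CPM (log2 fold change -2.42, adjusted p = 0.00045). Cnr1 was higher, at 15.7 ± 4.07 against 0.69 ± 1.21 CPM (adjusted p = 0.00092), from 255 counts in the cortical and 7 in the subcortical libraries. Its subcortical mean is below the level of 3 counts, and its fitted log2 fold change, 4.496, became 6.72 without subcortical library 1.

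Of 6 Gs-coupled receptors tested, 2 were higher and 0 lower in cortical astrocytes, while the median log2 fold change of the 6 was -0.33. DESeq2, and the fit without subcortical library 4, each called 1 Gs-coupled receptor lower. Ptger4, the prostaglandin EP4 receptor, stood at 22.5 ± 3.94 against 2.02 ± 2.79 CPM (log2 fold change 3.32, edgeR adjusted p = 0.0015). Its subcortical level rests on 27 counts, and the log2 fold change was 4.98 without subcortical library 4. Adora2a, an adenosine receptor, stood at 51.5 ± 17.6 against 20.1 ± 9.14 CPM (log2 fold change 1.38, adjusted p = 0.012) and was lost without the cortical library of mouse 2 (adjusted p = 0.056). Of 8 Gq-coupled receptors tested, P2ry1, a receptor for ADP, was the 1 called, lower at 16.0 ± 5.57 against 67.2 ± 10.6 CPM (log2 fold change -2.07, adjusted p = 2.2e-05). Ednrb, the endothelin B receptor and the most abundant of these, stood at 505 ± 60.0 and 655 ± 110 CPM (adjusted p = 0.227), and Hrh1, the histamine H1 receptor, at 121 ± 17.8 and 152 ± 40.5 CPM (adjusted p = 0.460).

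Receptors that also couple to G12/13 gave 3 lower calls of 6 tested, for Lpar1 and Lpar6, receptors for lysophosphatidic acid, and Adgrg1, an adhesion receptor. Adgrg1 stood at 1119 ± 178 against 1720 ± 450.3 CPM (log2 fold change -0.62, edgeR adjusted p = 0.038). Lpar1 stood at 13.7 ± 6.11 against 35.7 ± 14.7 CPM (log2 fold change -1.38, adjusted p = 0.017), and Lpar6 at 21.5 ± 11.2 against 49.8 ± 16.7 CPM (log2 fold change -1.21, adjusted p = 0.025). Leaving out 1 library ended the Adgrg1 call for cortical libraries 1, 2 and 4 and subcortical libraries 1 and 4 (adjusted p up to 0.191). It ended the Lpar1 call for cortical libraries 2, 3 and 4 and subcortical library 1 (up to 0.135), and the Lpar6 call for cortical libraries 1, 2 and 3 and subcortical libraries 2 and 4 (up to 0.105). Oligodendrocyte markers were also lower in cortical libraries, at a summed 882 to 1419 CPM against 2314 to 5846 CPM, and 8 of 10 were called lower. Their part in the lower receptor and effector levels was not tested. Of neuron markers 3 of 13 tested were called higher and 1 lower, and of microglia markers 3 of 10 higher and 0 lower. The part of neuronal or microglial RNA in the higher levels of pathway genes such as Cnr1 was not tested either.

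For each class the member with the highest mean over all 8 libraries was taken. In subcortical libraries alone Gnai2, not Gnao1, led the Gi/o class. The genes with the most similar profile over the 8 libraries were found by the root mean square difference of centred log2 levels. Candidates had a mean of at least 10 CPM. Genes without a symbol, or with a predicted, RIKEN, pseudogene, mitochondrial or accession name, were left out, 4930488L21Rik among them. For Gnao1 the most similar genes were Ezr (0.19), Chst2 (0.29) and Pamr1 (0.34). Ezr, which encodes the membrane to actin linker ezrin, averaged 308 ± 35.98 CPM on the cortical and 46.2 ± 4.78 CPM on the subcortical side. Chst2, a sulfotransferase, stood at 713 ± 104.0 and 86.2 ± 27.4 CPM. For Gnas they were Ube2r2 (0.12), Scpep1 (0.13) and Snd1 (0.14), and for Gnaq they were Suds3 (0.045), Spred1 (0.089) and Rab5if (0.097). For Gna13 they were Ccnk (0.083), Ptdss2 (0.10) and Sec24b (0.11).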

How the data were processed

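RNA of sorted astrocytes was sequenced as QuantSeq 3′ libraries, 1 per region and mouse. Per the submitters' processing notes the tools were STAR 2.6.0, FastQC 0.11.5, DESeq2 1.35.0 and HTSeq 0.9.0, with GRCm39 as the build. The deposited values are whole counts per Ensembl gene in the layout of HTSeq, with 5 summary rows, not normalized. Of the reads HTSeq listed, 30.2% to 40.7% fell in no gene and 0.38% to 0.55% were ambiguous; these, and 1 row that names no Ensembl gene, were left out. The sources used here do not say whether strand or molecular identifiers were used. Precision covers the spread between mice and counting error.

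Counts were tested with edgeR 4.0.16 in R 4.3.3 (quasi-likelihood, TMM scaling, filterByExpr with a minimum count of 10, Benjamini-Hochberg adjusted p under 0.05) on all genes, with region as the term. Sex was tested on sums per mouse, and sex by region in one model. CPM uses TMM-scaled library sizes, and SD is over the 4 mice. limma 3.58.1, DESeq2 1.42.0 and left-out libraries were alternatives. The procedure was tested on simulated data. Libraries of one number come from one mouse per the labels, which is what pairs them. After subtracting region means, their correlation was 0.025 to 0.066, against -0.093 to 0.052 between different mice, and 6 of 8 libraries correlated best with their own mouse. Mitochondrial genes took 10.1 ± 0.99% of cortical and 11.9 ± 1.90% of subcortical counts.

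The members and lists were chosen with earlier results of these data known. All members are named. Of each pathway list up to 4 called genes are named by smallest p, or the 2 most abundant tested genes where fewer than 2 were called. One such gene is not reported here. Profiles used a pseudocount of 0.5 CPM on a log2 scale. Coding ends came from GENCODE M21 (GRCm38), another build than that of the counts, so no coordinates are given.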

Additional observations from a re-analysis of the deposited data

Results flagged for a closer look

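Values of single libraries were looked at in 28 groups of 4, of which chance flags about 1 in 20. The Gna11 level in the cortical library of mouse 1 was 68.2 CPM, and the other 3 cortical libraries lay at 43.3 to 47.2 CPM. The Gnai2 level in the subcortical library of mouse 2 was 432.0 CPM, and the other 3 subcortical libraries lay at 577 to 585 CPM. In both cases the gap to the nearest library, 0.843 and 0.950 of the group's range, was above Dixon's 95% critical value for 4 samples.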

How the results depend on the processing

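The number of members called between regions was 1, Gnao1, under all 25 alternatives, with its log2 fold change at 2.91 to 3.11 and its adjusted p at 9.4e-126 to 1.1e-07. With the mouse number as a replicate block, Gnao1 stood at 3.00 (edgeR adjusted p = 9.2e-11) and Gnas at -0.38 (adjusted p = 0.211). This paired fit called 885 genes, 770 of them among the 802 of the unpaired fit, and changed no member's call. The adjusted p ranged from 0.123 to 1 for Gnas and from 0.186 to 0.947 for Gnai3. Over all genes the count of 802 fell to 477 at an adjusted p under 0.01, 333 against a fold of 1.5, 474 without mouse 1, 300 in females and 312 in males. Tests of sex called 0 members under 8 alternatives, with 5 to 30 genes called in all, and those of sex by region 0 members under 12, with 0 to 2 genes called in all (1 with the replicate block).

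The Gi/o share difference of 25.1 percentage points was 19.2 without Gnas in the sum and 4.80 without Gnao1, and 24.1 to 26.3 when a library or mouse was left out. Without Gnao1 the differences were -5.42 for Gs, -0.65 for G12/13 and 1.27 for Gq, the last with the opposite sign. Without Gnas they were -7.10 for Gq and -12.1 for G12/13.

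Differences near 0 changed sign. Between regions Gnai1 was 0.062 in females alone and Gnai2 -0.091 in males alone. Left-out libraries gave -0.13 to 0.28 for Gna12, -0.53 to 0.36 for Gnai1, -0.058 to 0.19 for Gnai2 and -0.27 to 0.0090 for Gna13. For sex the ranges were -0.29 to 0.0023 for Gna13, -0.40 to 0.055 for Gnas and -0.021 to 0.13 for Gnao1. For sex by region they were -0.35 to 0.88 for Gnai1, -0.14 to 0.54 for Gnas, -0.82 to 0.36 for Gnai3, -0.22 to 0.36 for Gna11, -0.60 to 0.53 for Gna12 and -0.24 to 0.45 for Gna13. The cause was not tested. Gnai1 rests on 11 to 54 counts per library, which limits its comparison.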
